A study of Mus musculus with 4 samples.

Results

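The genes of the mitochondrial ribosomal proteins were examined in MC38, a mouse colon carcinoma cell line. The libraries compared were labelled either wild type (WT) or Arid5a knockout (KO). Members were all gene symbols that begin with Mrpl or Mrps followed by a digit, pseudogenes left out, which gave 77 of the 24346 symbols in the tables. They encode most of the proteins of the mitochondrial ribosome. All 77 averaged 1 FPKM or more and were tested, so no member was lost to the filter on low values. FPKM is the number of fragments of a transcript scaled by its length and by how many fragments the library mapped.

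Each group held 2 libraries, numbered 1 and 2, of untreated cultured cells as far as the labels say. Polyadenylated RNA was sequenced. The way the knockout was made, the number of clones and the source of the replicates are not given in the sources used here, so p-values measure only the spread between these libraries, which may be technical. KPC cells, which the series design also names, were not analysed here. In bulk RNA of this kind, fewer cells with a transcript and less of it per cell cannot be told apart.

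Arid5a, an RNA-binding protein with an AT-rich interaction domain and the targeted gene (GRCm38, chromosome 1, 36307733 to 36324029, plus strand), went against the labels. It was 0.225 and 0.124 FPKM in the WT-labelled libraries and 2.16 and 1.77 FPKM in the KO-labelled libraries. The KO-labelled libraries were therefore higher, by 1.33 ± 0.13 (SE) on the log2(FPKM + 1) scale (limma, adjusted p = 0.0013). Gene-level FPKM does not show whether the transcripts are intact. Whether the group labels were exchanged was not tested, and every rise and fall below would reverse if they were. Every direction below is the KO-labelled libraries relative to the WT-labelled libraries, and changes are on that log2 scale unless a percentage is given.

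The sum of FPKM per library ran from 600844 to 638120, and relative depth from low FPKM values ran from 0.668 to 1 of the deepest library. Fragment totals of 9700000 to 14500000 were estimated from the same values, which puts the largest counting error of a member in any library between 1.96% and 14.0%. Intestinal and epithelial markers were near absent: all 10 were below 1 FPKM in every library, Epcam, Cdx2 and Cldn7 were listed at 0, and the summed level was 0.564 and 1.048 FPKM in the WT-labelled and 0.972 and 0.696 FPKM in the KO-labelled libraries. Of 9 leukocyte markers in the tables, 4 were listed at 0 in all libraries, and the summed level was 8.08 and 10.5 FPKM against 2.14 and 1.84 FPKM. Cd68 and S100a8 made up 7.90 and 10.4 FPKM of the WT-labelled sums, while Ptprc, the pan-leukocyte marker, stayed at or below 0.0854 FPKM. All 4 endothelial markers were below 1 FPKM, with a sum of 0.450 to 0.904 FPKM. The part of these differences in the results below was not tested.

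The mitochondrial ribosome translates the few messenger RNAs of the mitochondrial genome, which encode subunits of the respiratory chain and of the ATP synthase. Its ribosomal RNAs are made inside the organelle, but all of its proteins are encoded in the nucleus, made in the cytosol and imported. Some of these proteins have counterparts in bacterial ribosomes and others were added during mitochondrial evolution. The large subunit joins amino acids and the small subunit decodes the messenger. Promoters of nuclear genes for mitochondrial proteins are known for sites of the activators NRF1, GABP (an ETS factor) and YY1.

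Promoter windows from RefSeq (GRCm38.p6) were found for 68 of the 77 members. The letters GCGC, any base, then TGCGC (NRF1), CCGGAAG (ETS) and AAGATGGCG (YY1) were searched on both strands from 250 bases before to 50 bases after the RefSeq start. The 4 windows below run from 250 bases before to 25 bases after the RefSeq start, on the gene's own strand. They belong to the members with the largest fall (Mrps23) and rise (Mrpl23) and the called members with matches of more than 1 motif. Capitals mark the matches.
Mrps23, chr11:88204138-88204412, plus strand: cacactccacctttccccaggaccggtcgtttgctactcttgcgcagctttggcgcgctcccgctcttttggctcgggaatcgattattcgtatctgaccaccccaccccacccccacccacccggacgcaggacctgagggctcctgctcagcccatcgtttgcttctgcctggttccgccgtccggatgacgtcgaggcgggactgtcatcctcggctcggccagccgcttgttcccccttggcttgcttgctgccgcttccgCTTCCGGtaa
Mrpl23, chr7:142532782-142533056, plus strand: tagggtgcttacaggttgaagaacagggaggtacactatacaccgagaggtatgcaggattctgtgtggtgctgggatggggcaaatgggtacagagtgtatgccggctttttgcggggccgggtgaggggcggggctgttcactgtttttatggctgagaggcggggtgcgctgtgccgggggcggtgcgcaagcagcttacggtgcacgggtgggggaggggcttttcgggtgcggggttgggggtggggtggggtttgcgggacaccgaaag
Mrpl57, chr14:57825989-57826263, plus strand: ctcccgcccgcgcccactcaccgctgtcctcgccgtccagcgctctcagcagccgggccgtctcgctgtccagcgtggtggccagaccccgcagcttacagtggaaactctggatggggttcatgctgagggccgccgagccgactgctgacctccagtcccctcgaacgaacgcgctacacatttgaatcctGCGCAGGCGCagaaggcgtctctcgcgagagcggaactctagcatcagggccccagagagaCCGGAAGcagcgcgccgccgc
Mrps26, chr2:130563507-130563781, plus strand: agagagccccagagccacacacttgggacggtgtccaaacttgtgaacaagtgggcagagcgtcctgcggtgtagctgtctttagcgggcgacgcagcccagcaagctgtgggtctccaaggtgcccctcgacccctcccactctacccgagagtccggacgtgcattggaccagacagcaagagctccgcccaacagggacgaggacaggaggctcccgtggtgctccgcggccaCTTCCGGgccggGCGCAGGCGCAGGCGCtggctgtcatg

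Mrps23 carried an ETS match on the minus strand 16 bases after its start. Mrpl57 carried an NRF1 match 57 bases before the start and an ETS match 5 bases after it. In Mrps26 a minus-strand ETS match lay 14 bases before the start, and 2 overlapping NRF1 matches began 2 bases before and 5 bases after it. None of these letters were found in the Mrpl23 window, which says only that they are not in it. This window begins inside the annotated span of Mrpl23 given below, so bases before the annotated start were not searched. Thus the promoters with NRF1 and ETS matches shown here belonged to a gene that fell, Mrpl57, and a gene that rose, Mrps26.

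Over the 68 members with a window, 13 held an NRF1 match (19.1%, against 12.5% of the 8606 tested genes with a window and 5.19% of all 27025 windows). An ETS match was found in 25 members (36.8%, against 22.4% and 9.93%), and a YY1 match in 8 (11.8%, against 4.03% and 1.64%). By call, NRF1 letters were in 2 of 9 higher, 4 of 20 lower and 7 of 39 uncalled members. ETS letters were in 4, 8 and 13 of these, and YY1 letters in 0, 2 and 6. These are matches of letters, not sites.

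The members were abundant and ordered alike in all libraries. Mrps21, a small-subunit protein with a bacterial homolog, was the highest, at 247 and 219 FPKM in the WT-labelled and 247 and 231 FPKM in the KO-labelled libraries. Mrpl20, a ribosomal-RNA-binding protein of the large subunit, was 237 and 213 FPKM against 174 and 184 FPKM. Mrpl12, which forms the stalk of the large subunit where translation factors dock, was 187 and 194 FPKM against 169 and 177 FPKM. The ranges of Mrps21 overlapped those of Mrpl20 in the WT-labelled libraries only, and Mrpl12 overlapped Mrpl20 in the KO-labelled libraries only.

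At the other end stood Mrpl17 at 7.48, 7.03, 7.10 and 7.82 FPKM and Mrpl41 at 9.96, 9.39, 10.04 and 10.4 FPKM, both proteins of the large subunit. Mrpl57, a mitochondrial addition to the large subunit, was next. Estimated fragments per library were 51 to 81 for Mrpl17 and 57 to 85 for Mrpl41, so these values carry the largest counting errors. In all, 64 members lay between 10 and 100 FPKM, 11 above and 2 below, and the highest mean was 32.1 times the lowest. Across the 77 genes, which are not independent replicates, the mean level and the median transcript length had a Spearman correlation of -0.41, and the mean level and the change one of -0.06. Pearson correlations of log2 levels over the members were 0.996 and 0.995 between the replicates of a group and 0.971 to 0.978 between groups.

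**Figure D1:**
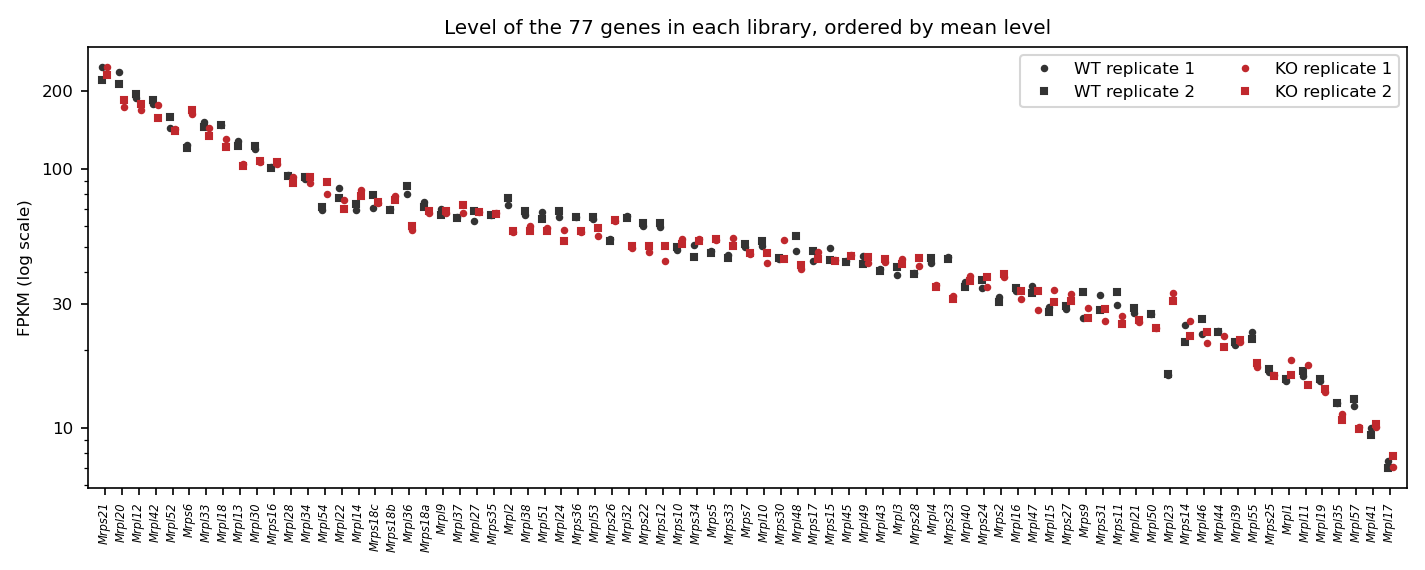
FPKM (log axis) of each of the 77 members in each library, ordered by mean level; circles and squares are replicates 1 and 2, black WT-labelled and red KO-labelled. Most members lie between 10 and 100 FPKM, and Mrpl23 stands out for the gap between its black and red points.

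In the comparison of groups, which asks what differs in cells labelled as lacking Arid5a, most members moved little. Of the 77, 11 were called higher and 23 lower (limma, adjusted p under 0.05 over all 10827 genes tested), together 34 or 44.2%. Over all genes tested 47.6% were called, 24.4% higher and 23.3% lower. The members' share of calls in both directions together was near that background in this fit. By direction, 14.3% of members were higher and 29.9% lower, a difference in split that was not tested. The groups did not overlap for 59 members (76.6%, against 77.5% of all genes): the KO-labelled libraries were above in 23 and below in 36. The median change was -0.07 over the members and 0.01 over all genes. A change of at least 0.5 was seen in 1 member (1.30%), against 12.5% of all genes, and the median size of a change was 0.14 against 0.18.

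These counts depended on the scaling, on the filter and trend of the fit, and on single libraries. With no trend, 31.2% of members were called, against 44.0% of all genes. With no filter on low values, 40.3% of members were called, against 31.0% of all genes. With each library scaled to the same FPKM sum, 5 members were called higher and 34 lower, against 1939 higher and 3259 lower over all genes. Without WT replicate 1, 5 were higher and 19 lower, and without WT replicate 2, 4 were higher and 14 lower. Over all genes the share called fell as well, to 30.7% and 29.7%. The members summed to 4765 and 4755 FPKM in the WT-labelled libraries and to 4574 and 4539 FPKM in the KO-labelled libraries, a mean that fell by 4.28%. The groups did not overlap in this sum, and the share of all FPKM was 0.793% and 0.781% against 0.717% and 0.721%.

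**Figure D2:**
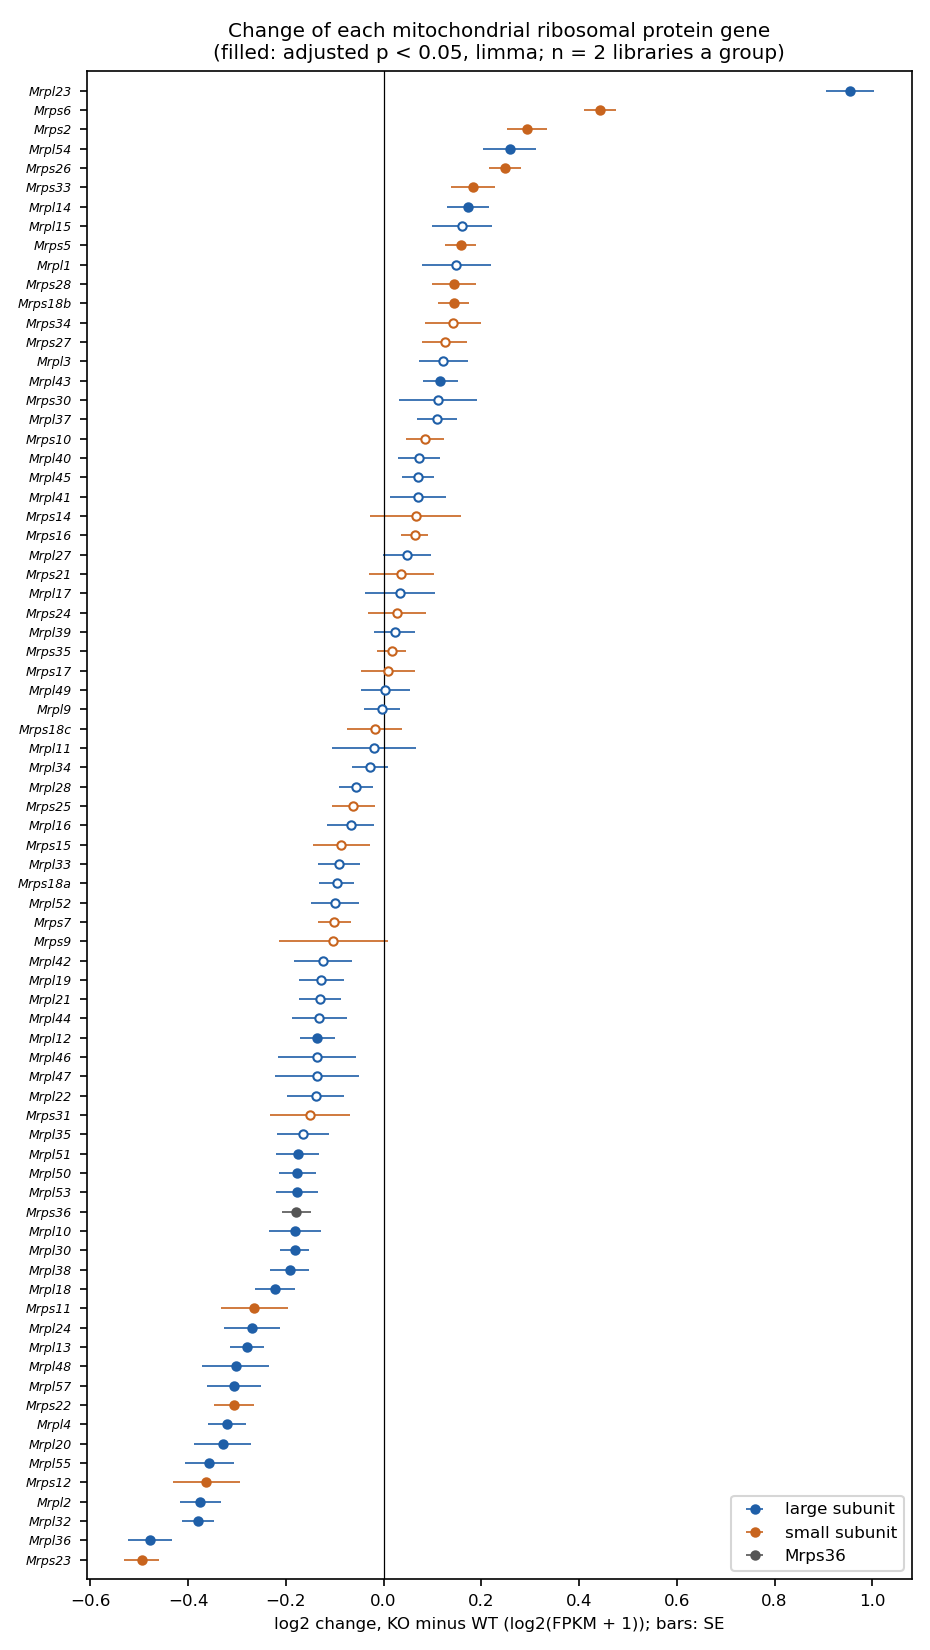
Change of each member (KO-labelled minus WT-labelled, log2(FPKM + 1)), with its standard error; filled points passed the test, blue is the large subunit and orange the small subunit. Mrpl23 at 0.95 stands apart from the other 76, which lie between -0.49 and 0.44.

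The largest rise was that of Mrpl23, a large-subunit protein that sits at the exit of the peptide tunnel. It was 16.0 and 16.1 FPKM in the WT-labelled libraries and 33.3 and 30.9 FPKM in the KO-labelled libraries. Both KO-labelled values were far above both WT-labelled values, with a ratio of means of 2.00 and a change of 0.95 ± 0.05 (limma, adjusted p = 0.00025). Mrps6, a small-subunit protein of the platform, was 124 and 120 FPKM against 163.4 and 169 FPKM. It rose by 0.44 ± 0.03 (limma, adjusted p = 0.00063). Mrps6 shares its strand and 29152 bases of its span with Slc5a3, a myo-inositol transporter, which was 7.87 and 7.58 against 6.88 and 7.18 FPKM (limma, adjusted p = 0.16). How the authors assigned reads in such overlaps is not given in the sources used here, so the level of Mrps6 is uncertain to that extent.

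The other called rises were smaller. Mrps2, a bacterial-type protein of the small subunit, was 32.1 and 30.7 FPKM against 38.1 and 39.3 FPKM (0.29 ± 0.04, limma, adjusted p = 0.0040). Mrps26, a mitochondrial addition to the small subunit whose promoter is printed above, was 53.5 and 52.6 FPKM against 62.6 and 63.7 FPKM (0.25 ± 0.03, limma, adjusted p = 0.0031). In both genes each KO-labelled value was above both WT-labelled values. Mrpl54, a mitochondrial addition to the large subunit, was 69.4 and 71.2 FPKM against 80.0 and 88.7 FPKM. Its change was 0.26, and its call was lost without WT replicate 1 or 2 (limma, adjusted p = 0.076 and 0.058).

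Mrps33, a mitochondrial addition to the small subunit, was 46.6 and 45.3 FPKM against 54.1 and 50.5 FPKM (0.18). Mrpl14, which lies at the interface of the subunits and overlaps Tmem63b on the other strand, was 69.6 and 73.0 FPKM against 82.9 and 78.3 FPKM (0.17). Mrps5, a protein near the entry of the messenger, was 48.0 and 47.3 FPKM against 52.9 and 53.7 FPKM (0.16). The groups did not overlap for any of these 3 genes, but all 3 calls were lost under same-sum scaling and without WT replicate 1 or WT replicate 2. Mrps33 and Mrpl14 were also not called without KO replicate 1, nor Mrps5 without KO replicate 2.

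Mrps28, a small-subunit protein with a bacterial homolog, was 39.6 and 39.3 FPKM against 42.2 and 45.3 FPKM (0.14, limma, adjusted p = 0.049). Mrps18b was 69.8 and 69.5 FPKM against 78.2 and 75.8 FPKM (0.14, limma, adjusted p = 0.017). Both calls were lost under same-sum scaling and without either WT replicate, Mrps28 also without KO replicate 2 and Mrps18b without KO replicate 1. The 11th called rise, 0.12 in Mrpl43, falls outside the rule for named genes and is named here after its values were seen. Mrpl43 kept no call when any of the 4 libraries was left out.

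Among the falls, Mrps23, a mitochondrial addition to the small subunit, led with 45.9 and 44.8 FPKM in the WT-labelled and 32.2 and 31.5 FPKM in the KO-labelled libraries. It fell by 0.49 ± 0.04 (limma, adjusted p = 0.00059), a mean that fell by 29.7%. Mrpl36, a short large-subunit protein with a bacterial homolog, was 79.7 and 85.5 FPKM against 58.0 and 60.04 FPKM and fell by 0.48 ± 0.04 (limma, adjusted p = 0.0013). In both genes the groups were far apart relative to the gap between replicates.

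Mrpl32, a large-subunit protein that the m-AAA protease matures on import, was 65.8 and 64.9 FPKM against 49.5 and 50.5 FPKM (-0.38 ± 0.03, limma, adjusted p = 0.00092). Mrpl2, which helps to build the peptidyl transferase centre, was 72.3 and 77.3 FPKM against 57.2 and 57.7 FPKM (-0.37 ± 0.04, limma, adjusted p = 0.0019). Mrps12, a protein of the decoding centre, was 59.6 and 61.7 FPKM against 43.9 and 50.2 FPKM (-0.36 ± 0.07, limma, adjusted p = 0.0099). In all 3 genes both KO-labelled values were below both WT-labelled values, and the call of Mrps12 was lost without WT replicate 2 (limma, adjusted p = 0.060).

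Mrpl20, the second most abundant member, fell by 0.33 ± 0.06 (limma, adjusted p = 0.0087). Mrpl55, a large-subunit protein with a bacterial homolog, was 23.4 and 22.0 FPKM against 17.2 and 17.8 FPKM (-0.36). Mrpl4, which lines the peptide tunnel, was 43.4 and 45.1 FPKM against 35.7 and 34.9 FPKM (-0.32). Each of these 3 genes was lower in both KO-labelled libraries than in either WT-labelled library.

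Mrps22, a mitochondrial addition to the small subunit, was 59.97 and 62.0 FPKM against 47.8 and 50.5 FPKM (-0.31). Mrpl57 was 12.2 and 12.97 FPKM against 10.1 and 9.90 FPKM (-0.31), and its call was lost without WT replicate 2 (limma, adjusted p = 0.062). Mrpl57 is the member of the printed promoters with both an NRF1 and an ETS match that fell. The other 13 called falls were between -0.30 and -0.14.

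**Figure D3:**
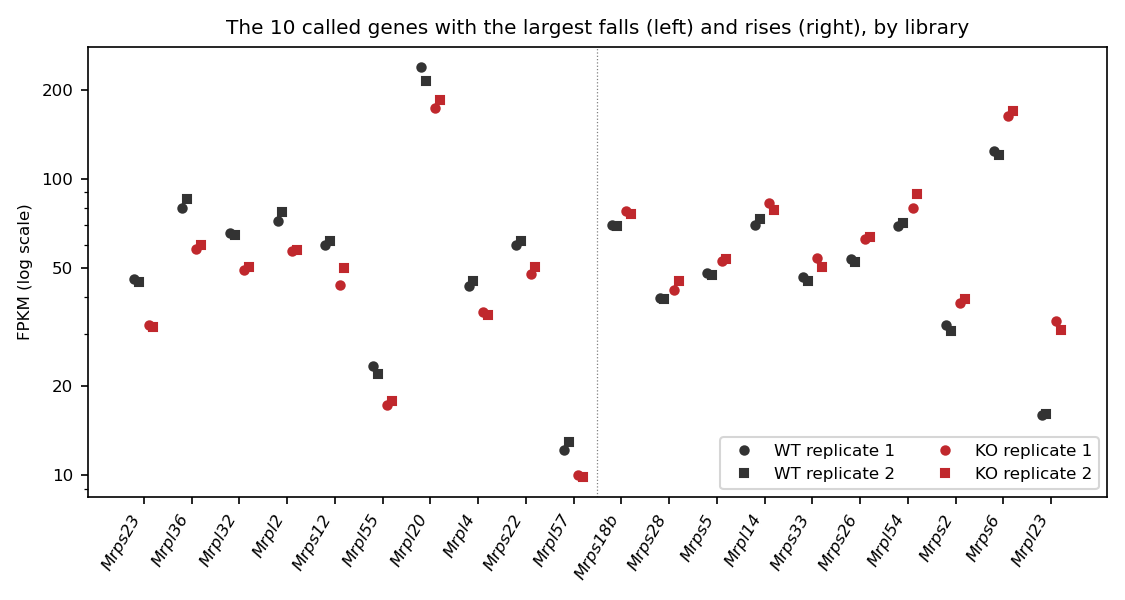
FPKM (log axis) in each library of the 10 called members with the largest falls, left of the dotted line, and the 10 with the largest rises, right of it; black is WT-labelled and red KO-labelled. Black and red points do not overlap for any of these 20 genes.

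By particle, the large subunit holds 50 of the 77 members. Of these, 4 were called higher (8.0%) and 18 lower (36.0%), against 24.4% and 23.3% of all genes, with a median change of -0.13. Of 26 small-subunit members, 7 were called higher (26.9%) and 4 lower (15.4%), with a median of 0.03, which was about 0 (-8.1e-05) without KO replicate 1. With each library scaled to the same sum, 2 large-subunit members were higher and 28 lower (median -0.19). In that setting 3 small-subunit members were higher and 5 lower (median -0.03). Over all genes, 1939 were then higher and 3259 lower, with a median of -0.055. With each chromosome centred, as described below, the large-subunit counts were 6 higher and 13 lower (median -0.09). The small-subunit counts were then 5 higher and 4 lower (median 0.03), and 2401 of all 10827 genes were higher and 2465 lower. The large-subunit genes summed to 3199 and 3213 FPKM in the WT-labelled libraries and 2971 and 2946 FPKM in the KO-labelled libraries. The small-subunit genes summed to 1502 and 1478 FPKM against 1547 and 1535 FPKM. Without Mrps6 the small-subunit sums were 1378 and 1358 against 1383 and 1366 FPKM, and the groups overlapped. The small-to-large ratio of these sums, which no library-wide scaling of FPKM alters, was 0.469 and 0.460 against 0.521 and 0.521, without overlap, and 0.431 and 0.423 against 0.466 and 0.464 without Mrps6. The difference between the subunits was not tested.

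Without WT replicate 2, the median change was -0.11 over the large-subunit and 0.06 over the small-subunit members. Without WT replicate 1 these medians were -0.11 and 0.04. By origin, 6 of 47 members with a bacterial homolog were called higher (12.8%) and 14 lower (29.8%), with a median of -0.09. Of 29 mitochondrial additions, 5 were higher (17.2%) and 8 lower (27.6%), with a median of 0.00. All genes tested gave 24.4% and 23.3%. Lower calls were made in 12 of 31 large-subunit proteins with a bacterial homolog, 6 of 19 large-subunit additions, 2 of 16 small-subunit homologs and 2 of 10 small-subunit additions, against 23.3% of all genes. Mrps18b, called higher, was counted among the additions, but its paralogs Mrps18a and Mrps18c among the members with a bacterial homolog. The counts by origin depend on that assignment. Differences between these groups were not tested.

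Several members have a place or role apart. Mrps30 and Mrps18a carry small-subunit names but are built into the large subunit. Mrps30 was 44.9 and 45.1 against 53.0 and 44.8 FPKM, overlapping because of KO replicate 2, and was called higher only without that library among the leave-one-out fits (limma, adjusted p = 0.29, and 0.019 without KO replicate 2). Mrps18a was 74.3 and 71.3 against 67.3 and 68.9 FPKM (-0.10, limma, adjusted p = 0.077). Its paralogs in the small subunit are Mrps18b, which rose, and Mrps18c, which was 70.8 and 79.1 against 73.7 and 74.2 FPKM (-0.02). Differences between these 3 paralogs were not tested.

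Of the stalk proteins, Mrpl10 was 50.4 and 52.5 against 43.2 and 47.3 FPKM (-0.18, limma, adjusted p = 0.040) and Mrpl12 fell by 0.14 (limma, adjusted p = 0.029). Neither was called when KO replicate 1 or either WT library was left out. Mrpl11, at the base of the stalk, was 15.9 and 16.5 against 17.4 and 14.7 FPKM (-0.02), with the groups overlapping. Mrpl45, which holds the ribosome to the inner membrane, was 44.2 and 43.6 against 46.3 and 45.9 FPKM (0.07, limma, adjusted p = 0.13). Mrps36, now assigned to the oxoglutarate dehydrogenase complex and counted in neither subunit, was 64.96 and 64.93 against 57.2 and 57.3 FPKM (-0.18, limma, adjusted p = 0.0069).

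The other ribosomes and the respiratory chain gave a comparison. Of 79 cytosolic ribosomal protein genes tested, 67 were called higher and 1 lower, with a median of 0.20, and their sum was 115441 and 112710 FPKM against 135796 and 135210 FPKM. That count was 44 higher with each library scaled to the same sum and 24 higher and 5 lower with quantile normalization. Of 79 genes with symbols of nuclear-encoded respiratory chain and ATP synthase subunits, 13 were higher and 28 lower, with a median of -0.04. These shares, 16.5% and 35.4%, compare with 24.4% and 23.3% of all genes tested. No test was made of the difference between these groups and the mitochondrial ribosomal proteins.

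**Figure D4:**
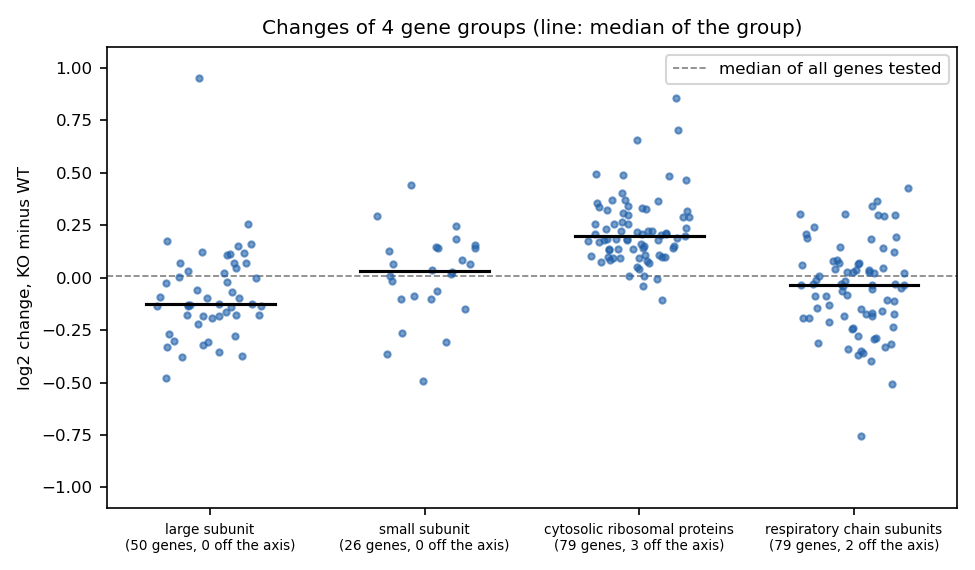
Change (log2(FPKM + 1), KO-labelled minus WT-labelled) of each tested gene of 4 groups, with the group median as a black line and the median of all genes tested as a dashed line; 3 cytosolic and 2 respiratory chain genes lie off the axis. The medians are -0.13 for the large subunit, 0.03 for the small subunit, 0.20 for the cytosolic ribosome and -0.04 for the respiratory chain.

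Of 6 tested subunits of the mitochondrial ribosome with other symbols, 1 was called higher (16.7%) and 1 lower (16.7%). All genes tested gave 24.4% and 23.3%. Gadd45gip1, a large-subunit protein, was 45.9 and 43.8 against 63.2 and 65.4 FPKM and rose by 0.51 ± 0.04 (limma, adjusted p = 0.00071). Ptcd3, a pentatricopeptide protein of the small subunit, was 82.2 and 81.7 against 75.8 and 76.0 FPKM and was called lower (-0.11), a call lost when any 1 of the 4 libraries was left out. Dap3, Chchd1, Aurkaip1 and Ict1 were not called.

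Of 26 tested genes for assembly of the ribosome and maturation of its RNA, 4 were higher (15.4%) and 8 lower (30.8%) (median -0.07). All genes tested gave 24.4% and 23.3%. Trub2, a pseudouridine synthase, was 4.41 and 4.07 against 8.38 and 8.22 FPKM (0.83), and Mtg1, a GTPase of large-subunit assembly, was 6.29 and 6.97 against 10.2 and 10.2 FPKM (0.56). Mettl15, a methyltransferase of the small-subunit RNA, was 1.47 and 1.26 against 2.14 and 2.70 FPKM (0.53), a call lost without WT replicate 2 or KO replicate 2. Mettl17, a factor of small-subunit assembly, was 10.7 and 10.9 against 6.32 and 7.61 FPKM (-0.57). Each of these 4 changes was larger than that of every ribosomal protein member but Mrpl23. Trub2 and Mettl15 lie on chromosome 2, where 54.6% of all tested genes were called higher. The part of the chromosome in their rises was not tested.

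Of 15 translation factors and messenger-binding proteins, 2 were higher (13.3%) and 4 lower (26.7%), against 24.4% and 23.3% of all genes (median -0.02). Slirp, which stabilises mitochondrial messengers, was 232 and 221 against 154 and 162.7 FPKM (-0.51). Mrrf, the ribosome recycling factor, encoded on chromosome 2 like Trub2, was 8.38 and 9.47 against 12.6 and 12.6 FPKM (0.46). The initiation factor Mtif2 was 25.1 and 25.3 against 21.1 and 21.7 FPKM (-0.23), a call lost without WT replicate 1 or 2. Mtif3, also an initiation factor, moved the other way (0.21) and lost its call without WT replicate 1 or either KO library.

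Of 17 mitochondrial tRNA synthetases, which charge tRNAs with amino acids, 1 was higher (5.9%) and 3 lower (17.6%), with a median of -0.06. Both shares were below the 24.4% and 23.3% of all genes. Mars2 was 13.6 and 13.8 against 9.37 and 10.8 FPKM (-0.41), and its call was lost without WT replicate 1 or 2. Tars2 was 27.9 and 25.3 against 20.5 and 19.8 FPKM (-0.38). Ears2 (0.28) lost its call without any 1 of the 4 libraries, and Sars2 (-0.24) without WT replicate 1 or either KO library.

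Of 19 regulators of mitochondrial transcription and biogenesis, 4 were higher (21.1%) and 1 lower (5.3%), against 24.4% and 23.3% of all genes (median -0.03). Gabpb1, a subunit of GABP also encoded on chromosome 2, was 11.3 and 9.85 against 15.8 and 15.8 FPKM (0.54). Yy1 was 42.7 and 39.9 against 51.8 and 47.9 FPKM (0.27), a call lost without WT replicate 2 or KO replicate 1. Ppargc1b, a coactivator, was 1.79 and 1.48 against 2.34 and 2.36 FPKM (0.35), a call lost without WT replicate 2 or either KO library. Nrf1 was 18.0 and 17.2 against 19.4 and 21.4 FPKM (0.20), a call lost without KO replicate 2 or either WT library. The 1 gene called lower was Pprc1, a coactivator related to Ppargc1b, at 40.0 and 40.8 against 35.3 and 36.3 FPKM (-0.17), and it was chosen after its values were seen. Its call was lost without WT replicate 1, without WT replicate 2 and without KO replicate 1. No value here ties these levels to the promoter letters above.

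On some chromosomes the members and the other genes moved alike, and on others they did not. On chromosome 2, where the median of 864 tested genes was 0.23 and 54.6% were called higher, 4 of 4 members had a positive change and Mrps2, Mrps26 and Mrps5 were called higher. On chromosome 13, where the median of 406 genes was -0.13 and 41.4% were called lower, Mrpl36, Mrpl32 and Mrps36 were the called members among 5, all lower. On chromosome 11, with a median of -0.10 over 915 genes, 5 of 10 members were lower and 0 higher, against 35.5% and 15.1% of its genes. Elsewhere the medians differed: -0.20 over 6 members and 0.03 over all genes on chromosome 7, -0.31 over 3 members and 0.01 on chromosome 9, and -0.10 over 5 members and 0.03 on chromosome 1. The part of a change of whole chromosomes, or of chromosome copies, in these values was not tested.

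With the genes of each chromosome centred in each library, an alternative added after the data were seen, Mrps2 was 0.06 (limma, adjusted p = 0.28), Mrps26 0.02 (limma, adjusted p = 0.70) and Mrps5 -0.07 (limma, adjusted p = 0.12). Mrps36, Mrpl10, Mrpl12, Mrpl38, Mrpl53 and Mrpl51 also lost their calls, while Mrpl45 (0.16), Mrpl37 and Mrps27 were then called higher. Mrpl23 stayed at 0.92 and Mrps6 at 0.43, both called, and 11 members were higher and 17 lower in all.

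Mrpl23 lies on chromosome 7 (GRCm38, 142532686 to 142540747, plus strand) among genes that rose with it. Of 10 tested neighbours within 1 Mb on either side, 9 were called higher, with a median change of 0.68. Over all tested genes of chromosome 7, 24.5% were called higher. Ap2a2, an adaptor subunit of endocytosis, was 20.9 and 21.9 against 47.3 and 48.8 FPKM (1.13). Cd81, a tetraspanin, was 76.7 and 80.1 against 121 and 131 FPKM (0.67), and Nap1l4, a histone chaperone, was 57.3 and 57.4 against 84.5 and 81.8 FPKM (0.53). Tollip, an adaptor of Toll-like receptor signalling, was listed at 0 in both WT-labelled libraries and was 8.95 and 9.79 FPKM in the KO-labelled libraries. Phlda2, an imprinted gene, was likewise listed at 0 and then 4.04 and 4.96 FPKM. These 5 neighbours were named after their values were seen.

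The other members with large changes had more mixed surroundings. Around Mrps2, 10 of 14 tested neighbours were higher and 1 lower. Around Mrps6, with a median of 0.07, 5 of 14 were higher and 1 lower. Around Mrpl36, 0 of 12 were higher and 6 lower, and around Mrps23, 3 of 16 were higher and 7 lower. Over whole chromosomes, 54.6% of genes were higher on that of Mrps2 and 21.0% on that of Mrps6. On those of Mrpl36 and Mrps23, 41.4% and 35.5% were lower. Other large falls had level or higher neighbours, with a neighbour median of 0.03 for Mrpl32, 0.00 for Mrpl2 and 0.13 for Mrps22. In all, 7 of the 23 lower members had a neighbour median above 0. Over the 76 members with at least 3 tested neighbours, the change of the member and the median of its neighbours had a Pearson correlation of 0.63 and a Spearman correlation of 0.45. Without Mrpl23 the Pearson correlation was 0.48. These genes share the same 4 libraries and some share neighbours, so the correlation is a description.

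**Figure D5:**
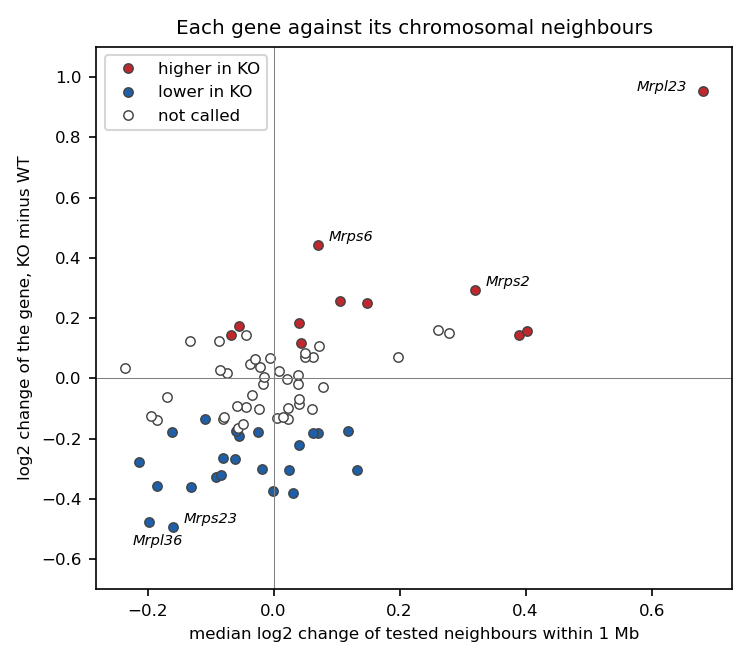
Change of each of 76 members against the median change of the tested genes within 1 Mb of it (both log2(FPKM + 1), KO-labelled minus WT-labelled); red was called higher, blue lower, white not called. Mrpl23, with neighbours at 0.68, is at the upper right, and 9 of the 11 members called higher have a neighbour median above 0.

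Overlapping genes limit some of these values. By annotation, 26 members overlap a protein-coding gene, 4 of them on the same strand. The kit marks strand, but whether the counting used it is not given in the sources used here, so reads of overlapping genes on opposite strands may have been shared.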

How the data were processed

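Polyadenylated RNA of 4 MC38 libraries was sequenced after a stranded kit, per the labels' protocols. Cufflinks 2.2.1, TopHat2 2.0.13, SAMtools 0.1.19, Bowtie2 2.2.3 and the build mm10 were used, per the submitters' processing notes; annotation and settings are not given in the sources used here. Values are FPKM per gene symbol as deposited by the authors, which are not counts, so no count model was run. FPKM fixes library size by mapped fragments, so a few abundant genes can shift all others. Depth was estimated from the steps of low FPKM values.

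Genes averaging 1 FPKM or more were fitted as log2(FPKM + 1) with limma 3.58.1 (R 4.3.3; empirical Bayes with trend, two-sided), Benjamini-Hochberg adjusted at 0.05 over all genes tested. The pseudocount understates changes of low genes. The fit was tested on simulated data. All 77 members matched 1 gene of the GRCm38 annotation. Neighbours are tested genes within 1 Mb.

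Members and lists were chosen with earlier results of these data known. Genes named are Arid5a, the 10 called members with the largest rise and fall, the 3 highest and 3 lowest members, members with a particular role, and up to 4 called genes per list.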

Additional observations from a re-analysis of the deposited data

How the results depend on the processing

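Over 16 alternatives (pseudocount, filter, scaling, moderation, replicate block, each library left out, chromosome centring), Mrpl23 and Mrps6 were called higher and 11 members lower in all of them: Mrps23, Mrpl36, Mrpl32, Mrpl2, Mrpl55, Mrpl20, Mrpl4, Mrps22, Mrpl13, Mrpl18 and Mrpl30. Members called higher numbered 5 with each library scaled to the same sum and 6 with no trend, where 34 and 18 were lower. Over all genes, 1939 were higher and 3259 lower with the same sum, and 2439 and 2321 with no trend. With 1 library left out, 4 to 11 were higher and 14 to 19 lower, and the median change ran from -0.0731 to -0.0442; the lone library of a group was then assumed to vary like the others. The members' median was -0.132 with the same sum, where the median of all genes was -0.055. The members' median less that of all genes was -0.077 there and -0.073 in the main fit. With each chromosome centred the members' median was -0.0459, and Mrps5 turned to -0.0735. That centring removes whatever a chromosome's genes share. Causes of the other shifts were not tested. With a replicate block, 9 members were higher and 23 lower, against 2369 and 2304 of all genes. This kept 8 of the 11 rises (not Mrpl14, Mrps28 or Mrpl43) and 22 of the 23 falls (not Mrps11). The labels do not say that the numbers pair libraries, and deviations of same-numbered libraries correlated at 0.138. Having 2 libraries a group and 51 to 81 estimated fragments for Mrpl17 limit what can be seen.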

Other observations

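Many of these genes start close to a gene on the other strand. In 30 distinct pairs of a member and a tested gene, the starts lie within 1000 bases on opposite strands, and in 12 of them the genes overlap at their starts. Shared promoter use was not measured. The changes had the same sign in 14 of the 30 pairs, with a Pearson correlation of 0.03 across pairs. Both genes passed the test in 9 pairs, 5 in the same direction and 4 in opposite directions. Of all genes tested 47.6% were called, so some pairs of any genes would both pass. Pairs of other genes were not counted.

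Mrpl36 fell with Ndufs6, a complex I subunit that was 166 and 160 FPKM in the WT-labelled and 143 and 133 FPKM in the KO-labelled libraries (-0.24). Mrpl32 fell with Psma2, a proteasome subunit, at 259 and 255 against 224 and 235 FPKM (-0.16). Mrps12 fell with Sars2, the mitochondrial seryl-tRNA synthetase, at 11.7 and 10.6 against 9.36 and 9.15 FPKM (-0.24), and Mrpl51 fell with Ncapd2, a condensin subunit, at 74.2 and 70.1 against 62.6 and 61.4 FPKM (-0.21). Mrpl54 rose with Apba3, at 18.2 and 19.8 against 23.3 and 26.4 FPKM (0.37). With each chromosome centred, Ndufs6 (-0.11), Psma2 (-0.03) and Mrpl51 (-0.13) were not called. Their partners, and both genes of the remaining same-direction pairs, stayed called. Without WT replicate 1 the calls of Ndufs6, Psma2, Sars2, Mrpl51, Mrpl54 and Apba3 were lost, and without WT replicate 2 those of Mrps12 and Mrpl54. Without KO replicate 1 or KO replicate 2, Mrpl51 and Sars2 were not called.

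In the opposite direction, Mrpl48 fell by 0.30 while Rab6a, a Golgi GTPase, was 45.1 and 43.2 against 60.3 and 58.0 FPKM (0.41). Mrpl18 fell by 0.22 while Tcp1, a chaperonin subunit, was 352 and 349 against 406 and 403 FPKM (0.21). Mrpl13 fell by 0.28 beside Mtbp (0.23), and Mrpl30 fell by 0.18 beside Mitd1 (0.24). Mrpl48, Mrpl18 and Mrpl13 overlap their partners by 892, 645 and 341 bases, so reads there may have been shared. The call of Mrpl48 was lost without KO replicate 1 or KO replicate 2, that of Mtbp without WT replicate 2 or KO replicate 1, and that of Mitd1 without WT replicate 1 or KO replicate 1. These pairs were named after their values were seen.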
